A study of Mus musculus with 18 samples.

Results

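The genes described here are 41 genes of mitosis and of the G2/M transition of the cell cycle, chosen by gene symbol for their known roles. The choice was made with earlier results of these data known. All 41 were found in the table of 21380 gene identifiers, and all 41 were among the 14288 genes kept after a filter on low values, which asked for 10 or more normalized counts in 3 or more of the 18 libraries. They cover cyclins and Cdk1, the transcription factor Foxm1, regulators of anaphase, mitotic kinases, the chromosomal passenger complex, kinetochore proteins, kinesins, spindle and cytokinesis proteins and proteins of chromosome structure.

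The study asked how loss of lactate dehydrogenase A (Ldha), the enzyme that turns pyruvate into lactate, affects mouse macrophages. Bone marrow cells from wild-type (WT) or Ldha knockout (KO) mice were cultured over 7 days with 15% serum and with 30 ng/mL of M-CSF, the growth factor that drives their differentiation and division. The resulting bone marrow-derived macrophages were left untreated, or received interferon-gamma (IFN-gamma) or interleukin 4 (IL-4) for 24 h. Poly(A) RNA was sequenced in 3 libraries for each of the 6 groups, the same 3 sample codes recur in the 3 treatments of a genotype, and p-values measure the spread between these libraries. The 6 groups are thus WT untreated, WT with IFN-gamma, WT with IL-4, KO untreated, KO with IFN-gamma and KO with IL-4. All groups share the M-CSF culture, while cytokine doses, animal ages, the way the allele was deleted and the cells in which it was deleted are not given beyond the word macrophage-specific in the title.

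Libraries held 9.77 M to 49.5 M reads assigned to genes (median 30.9 M), with the lowest depth in WT IL-4 replicate 2. Ldha fell from a mean normalized count of 11618 in WT to 2327 in KO untreated cells, and Lyz2, which encodes the macrophage lysozyme, fell from 631574 to 784.1, so effects of these losses cannot be told apart. All 10 macrophage markers examined passed the filter, with Csf1r, the M-CSF receptor, at 83118 to 90092 in WT and 87423 to 102435 in KO untreated libraries. The markers were not constant: 3 rose and 5 fell with IFN-gamma in WT, beside 31.4% and 31.1% of all genes tested. Among these markers were Fcgr1 (2.55), Mertk (2.23) and Trem2 (-3.49, log2 changes). In KO against WT, 2 were lower untreated (Lyz2 and Mertk, the latter by -0.76, adjusted p = 0.0103), beside 0.525% of all genes. With IFN-gamma 4 were higher and 4 lower in KO, beside 14.3% and 13.6%, and with IL-4 5 were lower, beside 3.13%. Of 10 myeloid progenitor markers 4 were among the 21380 gene identifiers, and 2 of these passed the filter. The summed normalized count of the 4 was 9.02 to 22.4 in WT untreated, 36.6 to 40.6 in WT IFN-gamma and 13.1 to 39.3 in WT IL-4 libraries. In KO this sum was 38.1 to 55.5 untreated, 29.3 to 57.1 with IFN-gamma and 21.2 to 37 with IL-4. The summed count of 4 of 6 dendritic cell markers was between 8.77 and 14.4 in WT untreated libraries, between 1491 and 2531 in WT IFN-gamma libraries and between 23 and 51.3 in WT IL-4 libraries. In KO the dendritic sum was 13.9 to 30.3 untreated, 1041 to 1323 with IFN-gamma and 108 to 131 with IL-4. The sum of 6 monocyte markers was between 139 and 262 in WT untreated and between 580 and 1212 in WT IFN-gamma libraries, while in KO the ranges overlapped, at 263 to 482 and 292 to 637. The sum of 6 of 8 neutrophil markers was 2584 to 2676 in WT untreated and 4990 to 5849 in WT IL-4 libraries, and 1729 to 2350 and 2741 to 3630 in KO. Mitochondrial transcripts took 1.95 to 2.17% of counts in untreated libraries, 0.952 to 1.38% with IFN-gamma and 1.5 to 1.92% with IL-4. The part of these shifts in the results below was not tested.

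Mitosis depends on a wave of transcription late in the cell cycle. Cyclin B with Cdk1 starts mitosis, kinases such as Plk1 and the aurora kinases build the spindle, the checkpoint holds anaphase back until every kinetochore is attached, and the anaphase-promoting complex then destroys securin and cyclin B. Many of these genes are repressed in resting cells through a short promoter element, the cell cycle homology region, by a complex of MuvB proteins with p130 or p107, and activated in cycling cells through MuvB with B-Myb and FoxM1, often together with NF-Y at CCAAT boxes. Macrophages grown in M-CSF can divide, and interferon-gamma is known to slow that division.

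RefSeq promoter windows on GRCm38.p6, from 250 bases before to 50 after a transcription start, were found for 36 of the 41 members, in 38 windows. The letters TTTGAA, a common form of the cell cycle homology region, occurred on either strand in 28 of the 38 windows, against 17.9% of all 32851 windows. TTCGAA, another form of the element, occurred in 3 of 38 against 1.56%, and CCAAT in 29 of 38 against 37.4%, searched on both strands, where neighbouring motifs can share end bases. TTTGAA and CCAAT stood in the same window in 25 of 38, against 6.95% of all windows. A match is only a run of letters and not a measured binding site. The last 150 bases of the windows are shown for members with small and large responses, 5′ to 3′ in the direction of transcription and ending 50 bases after the start site, with TTTGAA and CCAAT or their reverse complements in capitals.
Ccnb2 (chr9:70421505-70421654, minus strand): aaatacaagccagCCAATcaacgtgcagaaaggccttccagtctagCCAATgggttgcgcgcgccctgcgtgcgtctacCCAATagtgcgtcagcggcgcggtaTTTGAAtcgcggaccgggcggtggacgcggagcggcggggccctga
Ube2c (chr2:164769829-164769978, plus strand): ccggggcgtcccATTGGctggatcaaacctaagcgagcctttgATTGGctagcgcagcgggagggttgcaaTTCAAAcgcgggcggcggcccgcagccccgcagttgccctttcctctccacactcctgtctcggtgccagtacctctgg
Cenpf (chr1:189688037-189688186, minus strand): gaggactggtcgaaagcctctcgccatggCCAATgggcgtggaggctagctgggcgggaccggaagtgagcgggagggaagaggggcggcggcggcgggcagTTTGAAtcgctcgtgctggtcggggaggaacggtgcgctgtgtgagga
Plk1 (chr7:122159335-122159484, plus strand): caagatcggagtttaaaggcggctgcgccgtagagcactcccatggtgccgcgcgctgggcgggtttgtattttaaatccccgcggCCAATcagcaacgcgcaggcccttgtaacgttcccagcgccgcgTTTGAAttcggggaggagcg
Cdc20 (chr4:118437294-118437443, minus strand): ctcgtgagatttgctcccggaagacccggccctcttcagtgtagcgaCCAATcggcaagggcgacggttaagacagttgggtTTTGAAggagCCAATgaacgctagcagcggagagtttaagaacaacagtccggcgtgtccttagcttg
Cdk1 (chr10:69352863-69353012, minus strand): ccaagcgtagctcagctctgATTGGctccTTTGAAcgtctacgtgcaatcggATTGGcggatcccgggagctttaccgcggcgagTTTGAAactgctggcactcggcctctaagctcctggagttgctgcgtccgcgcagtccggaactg
Ccnb1 (chr13:100786437-100786586, minus strand): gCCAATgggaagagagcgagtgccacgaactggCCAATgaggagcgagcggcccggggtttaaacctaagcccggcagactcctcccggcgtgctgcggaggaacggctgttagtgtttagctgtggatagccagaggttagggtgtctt
In Ccnb2 the element starts at base 5 after the start site and 3 CCAAT boxes start 87, 54 and 21 bases before it. Cdk1 holds TTTGAA at 71 and 15 bases before its start site, and Ccnb1 holds 2 CCAAT boxes and no TTTGAA in the window. The window of Pttg1 holds neither, and its RefSeq start lies 270 bases downstream of the annotated gene start. This offset was larger for Kif2c (3867 bases), Cdca8 (2394), Cdca3 (629) and Kif4 (328), whose windows hold TTTGAA, and was 84 bases for Ccnb1. No window was found for Aurkb, Ccna2, Kif20a, Tpx2 and Foxm1.

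In untreated WT macrophages all 41 members were expressed, at levels per kilobase of exon that ran from a mean of 302 normalized counts for Top2a, which untangles DNA, and 301 for Pttg1, which is securin, down to 29 for Cenpf and 7.45 for the kinase Nek2. Mki67, the proliferation marker Ki-67, stood at 253 and Ccnb2 (cyclin B2) at 221 on the same scale. The summed normalized count of the 41 members was 20445, 20863 and 22116 in the 3 WT untreated libraries, 12287, 9036 and 9258 in the WT IFN-gamma libraries and 10596, 8141 and 7524 in the WT IL-4 libraries. In KO it was 28321, 29393 and 23529 untreated, 9008, 9357 and 9980 after IFN-gamma, and 10744, 10109 and 10904 after IL-4. Every cytokine-treated library thus lay below every untreated library in this sum. The sum does not rank the cytokines, because Tpx2 and Pttg1 rose with IFN-gamma. In WT IFN-gamma replicate 2 they held 2857 and 1620 of the 9036. The median member, as log2 against the WT untreated mean, stood at -1.79, -2.43 and -2.26 in the WT IFN-gamma libraries. In the WT IL-4 libraries it was less reduced, at -1.3, -1.64 and -1.77. On the same scale, against WT untreated, the KO untreated libraries stood at 0.456, 0.509 and 0.141. The KO medians ran from -2.27 to -1.9 after IFN-gamma, but only from -1.18 to -1.06 after IL-4. In bulk RNA, fewer dividing cells and less of each transcript per dividing cell cannot be told apart.

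**Figure D1:**
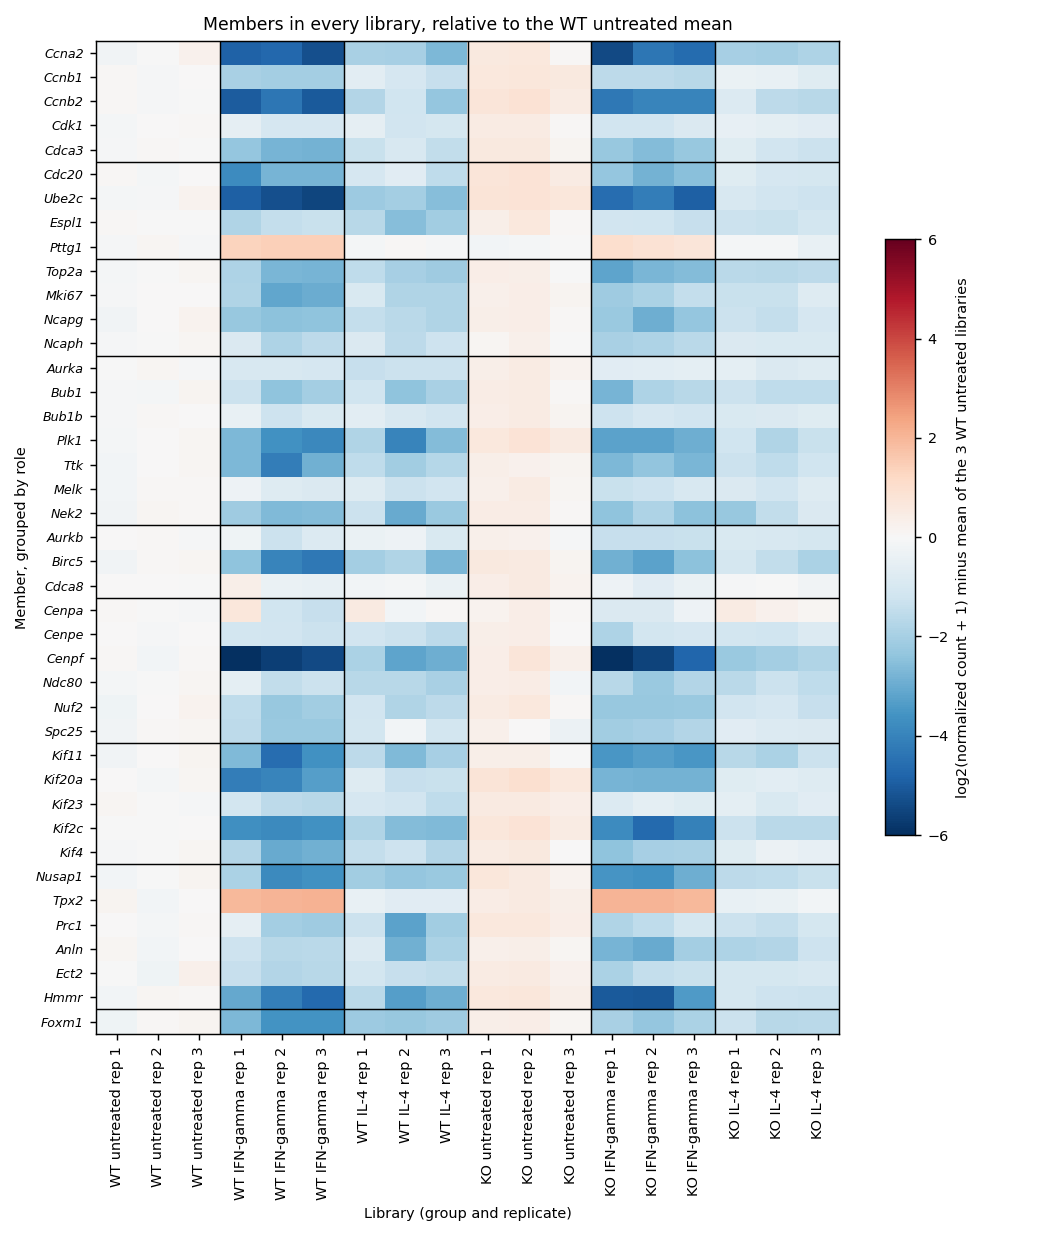
Each row is a member and each column a library, coloured by log2(normalized count + 1) minus the mean of the 3 WT untreated libraries, with black lines between groups and between roles. The blue blocks are the IFN-gamma and IL-4 libraries, and Pttg1 and Tpx2 are the rows that are red with IFN-gamma.

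With IFN-gamma, 37 of the 41 members fell in WT macrophages, 2 rose and 2 did not pass the test. In KO macrophages 39 fell and 2 rose. Of all genes tested, 31.1% fell and 31.4% rose in WT, and 27.5% fell and 28.3% rose in KO. The median change of the members was -2.01 in WT and -2.43 in KO, while that of all genes was -0.01 in both. Every IFN-gamma library lay below every untreated library for 37 members in WT and 39 in KO, against 35.4% and 34.3% of all genes. Changes are log2 differences of log2(normalized count + 1) with their standard error, tested with limma over all 14288 genes and called at a Benjamini-Hochberg adjusted p under 0.05, and folds are ratios of group means.

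Among the regulators of mitotic entry all 5 fell in both genotypes. Ccna2 encodes cyclin A2, and its normalized count was 541, 605 and 734 in the WT untreated libraries and 20.6, 22.5 and 15.3 with IFN-gamma. In KO it was 922, 963 and 643 untreated and 13.7, 29.4 and 24.4 with IFN-gamma. Ccna2 was therefore 32.1-fold lower with IFN-gamma in WT (log2 change -4.94 ± 0.26, adjusted p = 1.92e-11) and 37.4-fold lower in KO (-5.21 ± 0.26, adjusted p = 1.17e-11), with no overlap between groups. Ccnb2 fell to a similar degree, by -4.78 in WT and -4.75 in KO on the log2 scale. Ccnb1 encodes cyclin B1 and fell less, from 281, 253 and 271 to 69.7, 64.3 and 63.7 in WT (-2.01 ± 0.15, adjusted p = 3.55e-09) and from 417, 433 and 402 to 89.8, 90.1 and 85.2 in KO (-2.23 ± 0.15, adjusted p = 1.12e-09). Cdk1, the kinase that cyclins A and B activate, moved least of the 5. Its normalized count went from 578, 622 and 658 to 421, 302 and 311 in WT (-0.86 ± 0.16, adjusted p = 0.000172) and from 876, 872 and 658 to 275, 277 and 336 in KO (-1.43 ± 0.16, adjusted p = 6.41e-07). Treated cells thus kept 55.7% of the untreated Cdk1 mean in WT while they kept 3.11% of the Ccna2 mean. Cdca3, an adaptor in the destruction of the mitotic inhibitor Wee1, changed by -2.64 and -2.81.

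Foxm1 encodes a transcription factor that drives mitotic genes. It was at 335, 418 and 442 in WT untreated libraries and 60.9, 31.6 and 31.8 with IFN-gamma, and it went from 498, 514 and 434 to 103, 77.9 and 107 in KO. The fall was 9.61-fold in WT (-3.29 ± 0.21, adjusted p = 3.43e-10) and 5.03-fold in KO (-2.33 ± 0.21, adjusted p = 4.46e-08).

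Of the 4 regulators of anaphase, 3 fell and Pttg1 rose. Cdc20, the activator of the anaphase-promoting complex, went from 243, 213 and 237 to 15.7, 32.7 and 33.02 in WT (-3.11 ± 0.26, adjusted p = 9.02e-09) and from 387, 405 and 326 to 45.8, 31.2 and 39.1 in KO (-3.24 ± 0.26, adjusted p = 6.82e-09). Ube2c, its ubiquitin-conjugating enzyme, went from 242, 244 and 297 to 7.86, 5.64 and 4.72 in WT (-5.23 ± 0.22, adjusted p = 1.21e-12) and from 449.9, 466 and 416 to 10.1, 13.9 and 7.83 in KO (-5.29 ± 0.22, adjusted p = 1.24e-12). These low levels rest on 4 to 8 reads a library in WT and 8 to 11 in KO, so the size of the fall is less precise than its direction. Espl1, which encodes separase, changed by -1.52 and -1.60. Pttg1 encodes securin, the inhibitor of separase. Its normalized count was 581, 648 and 576 in WT untreated libraries and 1502, 1620 and 1625 with IFN-gamma, and it went from 540.5, 547 and 600.1 to 1193, 1112 and 1006 in KO. The gene (ENSMUSG00000020415.16) lies on the minus strand at chr11:43420250-43426251 of GRCm38. Each IFN-gamma library was above each untreated library in both genotypes, 2.63-fold in WT (1.39 ± 0.10, adjusted p = 7.39e-10) and 1.96-fold in KO (0.97 ± 0.10, adjusted p = 1.21e-07).

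All 7 mitotic kinases and checkpoint genes fell in both genotypes. Plk1, polo-like kinase 1, went from 202, 221 and 237 to 33.4, 16.9 and 14.2 in WT (-3.39 ± 0.39, adjusted p = 7.03e-07) and from 345, 386 and 324 to 22.9, 22.5 and 27.8 in KO (-3.80 ± 0.39, adjusted p = 2.10e-07). Bub1b encodes the checkpoint protein BubR1 and kept more of its level, at 662, 738 and 714 untreated and 516, 301 and 374 with IFN-gamma in WT (-0.86 ± 0.16, adjusted p = 0.000172), and it went from 922, 983 and 789 to 292, 352 and 317 in KO (-1.48 ± 0.16, adjusted p = 4.31e-07). The other 5 (Aurka, Nek2, Melk, Ttk and Bub1) changed by -0.66 for Melk to -3.24 for the checkpoint kinase Ttk in WT, and by -0.99 for aurora kinase A to -2.86 for Ttk in KO.

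The chromosomal passenger complex corrects faulty kinetochore attachments. Aurkb, its kinase, went from 468, 484 and 447 to 385, 191 and 268 in WT (-0.79 ± 0.20, adjusted p = 0.00197) and from 569, 565 and 448 to 179, 180.1 and 184 in KO (-1.53 ± 0.20, adjusted p = 2.77e-06). Birc5, which encodes survivin, changed by -3.55 and -3.26. Cdca8, which encodes borealin, was at 536, 529.5 and 519.6 in WT untreated and 679, 405 and 391 in WT IFN-gamma libraries, which overlap (-0.15 ± 0.17, adjusted p = 0.446), and it fell in KO (-0.84 ± 0.17, adjusted p = 0.000322). The kit kept strand, but the strand setting of the counting is not given, so values of members that overlap a protein-coding gene on the opposite strand are uncertain (Cdca8, Ccna2, Cdc20, Ube2c, Kif20a, Kif4, Nusap1, Prc1 and Ncapg).

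Among the 6 centromere and kinetochore genes, 5 fell in WT and 6 in KO. Cenpf, a large protein of the outer kinetochore, had the largest fall of the 41 in both genotypes, from 467, 401 and 475 to 5.89, 7.89 and 9.43 in WT (-5.70 ± 0.36, adjusted p = 2.90e-10) and from 597, 728 and 555 to 3.66, 8.66 and 15.7 in KO (-6.10 ± 0.36, adjusted p = 1.43e-10). Its IFN-gamma levels rest on 6 to 8 reads a library in WT and 4 to 18 in KO. Ndc80, which binds microtubules at the kinetochore, went from 299, 321 and 356 to 215, 115 and 133 in WT (-1.12 ± 0.22, adjusted p = 0.000229) and from 432, 443 and 294 to 101, 69.3 and 93.9 in KO (-2.13 ± 0.22, adjusted p = 1.80e-07). Cenpa is the histone H3 variant that marks centromeres. It was at 673, 625 and 611 in WT untreated libraries and at 1014, 273 and 243 with IFN-gamma, where replicate 1 lay above and replicates 2 and 3 below all untreated libraries. The WT change was -0.64 ± 0.36, adjusted p = 0.127, and without WT IFN-gamma replicate 1 all 41 members were called. In KO, Cenpa went from 743, 829 and 676 to 346, 348 and 510.5 (-0.92 ± 0.36, adjusted p = 0.037), a call that was lost in 5 of the 6 fits that left out a KO library and in DESeq2. Cenpe, Nuf2 and Spc25 changed by -1.17, -1.97 and -2.01 in WT and by -1.58, -2.65 and -1.95 in KO.

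All 5 kinesins fell in both genotypes. Kif11, the Eg5 motor that pushes spindle poles apart, went from 204, 241 and 259 to 36.3, 9.02 and 17.7 in WT (-3.62 ± 0.35, adjusted p = 8.39e-08) and from 299, 301 and 232 to 20.2, 22.5 and 20.00 in KO (-3.66 ± 0.35, adjusted p = 9.08e-08). Kif20a, a motor of cytokinesis, changed by -3.79 and -3.61, and Kif2c, which takes microtubules apart at centromeres, by -3.71 and -4.83. Kif23, the motor of the centralspindlin complex, kept 37% of its untreated mean in WT and 43.2% in KO.

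Of the 6 spindle and cytokinesis genes, 5 fell and Tpx2 rose. Tpx2 encodes the protein that activates aurora kinase A and nucleates spindle microtubules. Its normalized count was 759.9, 615 and 689.6 in WT untreated libraries and 2664, 2857 and 2878 with IFN-gamma, and it went from 944, 981 and 862 to 2839.7, 2850.5 and 2633 in KO. The gene (ENSMUSG00000027469.16) lies on the plus strand at chr2:152847964-152895321 of GRCm38. Each treated library was above each untreated library, 4.07-fold in WT (2.03 ± 0.094, adjusted p = 4.16e-12) and 2.99-fold in KO (1.58 ± 0.094, adjusted p = 1.44e-10). Aurka, the kinase that Tpx2 activates, fell in the same libraries, by -0.97 in WT and -0.99 in KO. Hmmr, a spindle and hyaluronan-binding protein, changed by -3.96 and -5.06, and Nusap1, Prc1, Anln and Ect2 by -1.51 to -3.12 in WT and -1.98 to -3.84 in KO.

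The 4 genes of chromosome structure fell in both genotypes. Top2a went from 2539, 2691 and 2924 to 746, 402 and 394 in WT (-2.46 ± 0.21, adjusted p = 1.38e-08) and from 3580.5, 3452 and 2628 to 302, 404 and 440 in KO (-3.08 ± 0.21, adjusted p = 9.07e-10). Mki67 went from 2448, 2572 and 2623 to 739, 293 and 324 in WT (-2.62 ± 0.29, adjusted p = 4.06e-07) and from 3173, 3411 and 2809 to 587, 672 and 948 in KO (-2.11 ± 0.29, adjusted p = 6.90e-06). WT IFN-gamma replicate 1 was the highest library of its group for Top2a and Mki67, as it was for 32 of the 41 members. The condensin subunits Ncapg and Ncaph changed by -2.39 and -1.41 in WT and by -2.76 and -1.93 in KO.

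**Figure D2:**
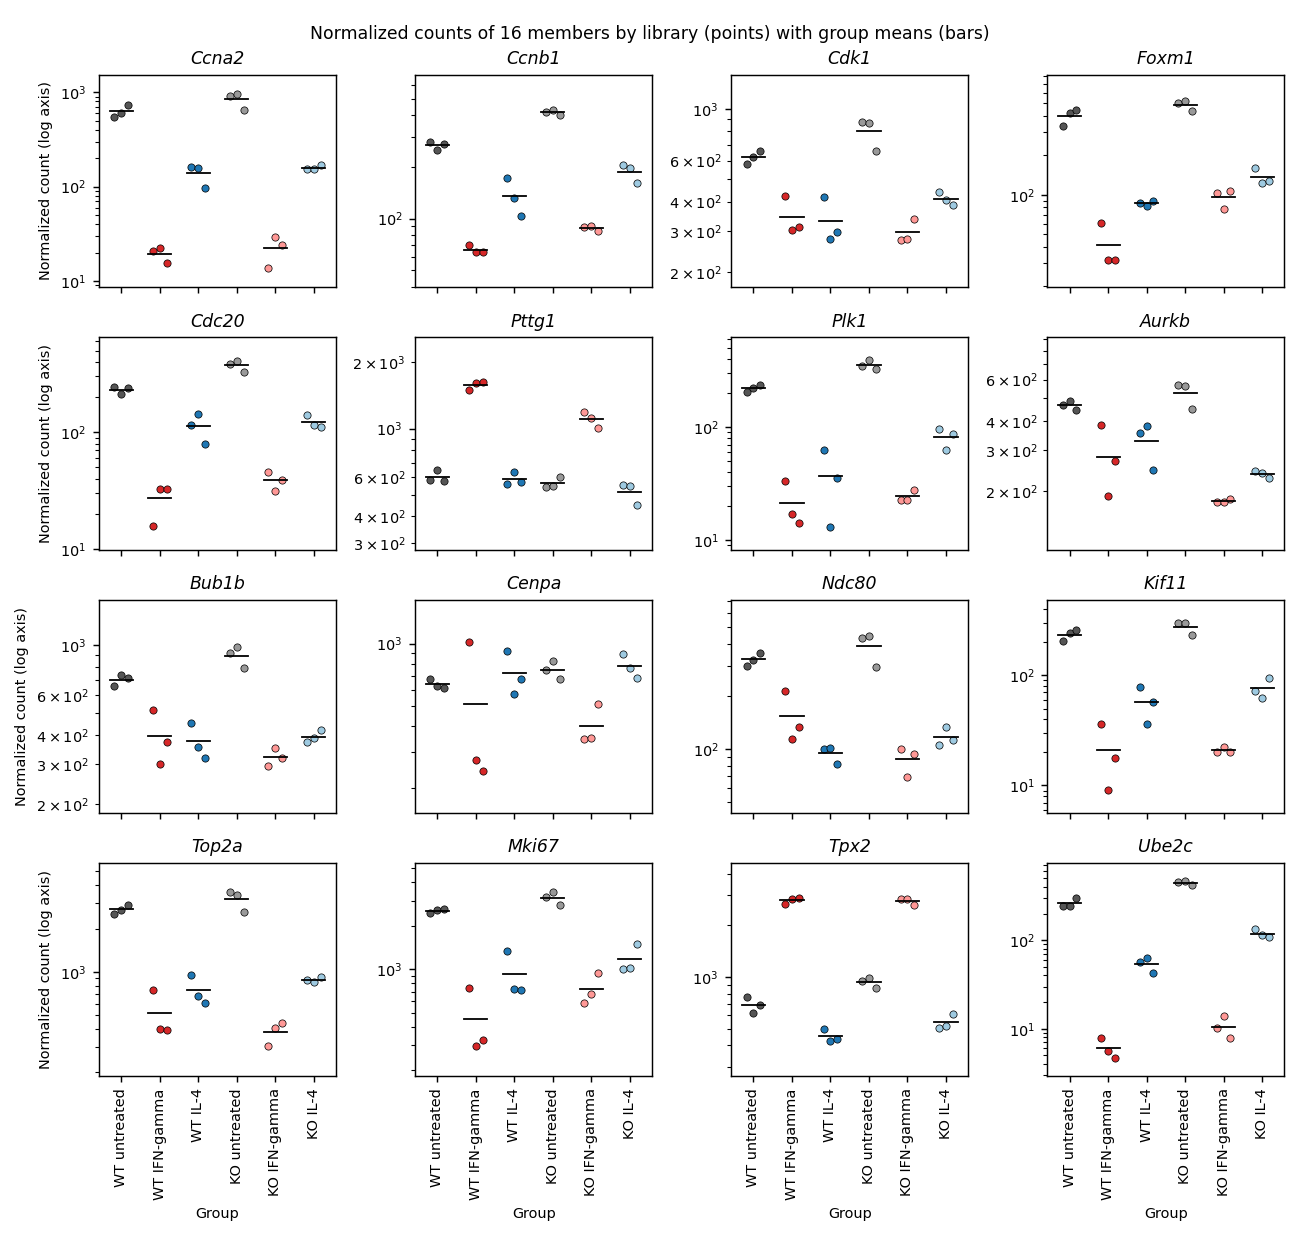
Normalized counts of 16 members on log axes, with a point for each library, a bar for each group mean and 3 libraries a group. Ccna2 and Ube2c drop furthest with IFN-gamma (red), and Pttg1 and Tpx2 rise. Cdk1 and Bub1b drop less than Ccna2 and Ube2c, with log2 changes of -0.86 for both in WT and of -1.43 and -1.48 in KO.

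With IL-4, 38 of the 41 members fell in WT and 39 in KO, and none rose. Of all genes, 14% fell and 16.3% rose in WT, and 14.5% fell and 15.8% rose in KO. The median change was -1.51 in WT and -1.58 in KO, against -0.01 and 0.00076 for all genes. Every IL-4 library lay below every untreated library for 38 members in WT and 39 in KO, against 21.7% and 23.3% of all genes. These comparisons use the same untreated libraries as those with IFN-gamma.

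Cyclins and Cdk1 all fell with IL-4. Ccna2 was at 161, 157 and 95.7 in WT IL-4 libraries (-2.20 ± 0.26, adjusted p = 4.32e-06) and 155, 152 and 170 in KO (-2.38 ± 0.26, adjusted p = 1.63e-06). Ccnb1 was at 171, 131 and 103 in WT (-1.01 ± 0.15, adjusted p = 7.49e-05) and 206, 196 and 161 in KO (-1.15 ± 0.15, adjusted p = 1.69e-05), and Cdk1 at 421, 275 and 297 (-0.92 ± 0.16, adjusted p = 0.000272) and 438, 407 and 388 (-0.95 ± 0.16, adjusted p = 0.000189). The Cdk1 loss with IL-4 in WT was thus close in size to that with IFN-gamma, while that of Ccna2 was smaller. Foxm1 was at 86.3, 81.97 and 90.02 in WT (-2.19 ± 0.21, adjusted p = 5.38e-07) and 159, 122 and 128 in KO (-1.82 ± 0.21, adjusted p = 3.96e-06).

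Of the anaphase regulators, Cdc20 was at 116, 144 and 78.8 in WT (-1.07 ± 0.26, adjusted p = 0.00421) and 140.1, 115 and 111 in KO (-1.60 ± 0.26, adjusted p = 0.000109). Ube2c was at 56.8, 62.3 and 43.1 in WT (-2.26 ± 0.22, adjusted p = 5.49e-07) and 133, 115 and 109 in KO (-1.89 ± 0.22, adjusted p = 3.71e-06), and Espl1 changed by -2.12 and -1.61. Pttg1 was at 561, 636 and 571 in WT (-0.029 ± 0.10, adjusted p = 0.85) and 551, 550.4 and 448 in KO (-0.13 ± 0.10, adjusted p = 0.35), overlapping the untreated libraries in both genotypes.

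Plk1 had the largest fall with IL-4 in WT, to 62.3, 13.1 and 35.6 (-2.79 ± 0.39, adjusted p = 3.13e-05), and was at 96.8, 62.7 and 87.4 in KO (-2.10 ± 0.39, adjusted p = 0.000465). WT IL-4 replicate 2, the shallowest library, held 4 Plk1 reads and was the lowest of its group. Bub1b changed by -0.92 in WT and -1.18 in KO, and Aurka was at 110.3, 118 and 117 in WT (-1.30 ± 0.11, adjusted p = 1.29e-07) and 189, 157 and 166 in KO (-1.10 ± 0.11, adjusted p = 8.53e-07). Aurkb was at 354, 380.3 and 247 in WT, a small fall (-0.53 ± 0.20, adjusted p = 0.0466) whose call was lost when any single WT untreated library or WT IL-4 replicate 3 was left out, and at 244, 239 and 227 in KO (-1.14 ± 0.20, adjusted p = 0.000193). Cdca8 was not called in WT (-0.23 ± 0.17, adjusted p = 0.318) and fell in KO (-0.49 ± 0.17, adjusted p = 0.0338), a call lost in 5 of the 6 fits that left out a KO library.

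Cenpa was the only member with a positive change with IL-4 in both genotypes, at 925, 574 and 673 in WT (0.16 ± 0.36, adjusted p = 0.775) and 891, 759 and 682 in KO (0.049 ± 0.36, adjusted p = 0.94), and neither passed the test. Cenpf changed by -2.65 and -2.50 and Ndc80 by -1.77 and -1.70. Kif11 was at 78.6, 36.1 and 57.5 in WT (-2.07 ± 0.35, adjusted p = 0.00022) and 72.6, 62.7 and 94.7 in KO (-1.85 ± 0.35, adjusted p = 0.000578), and Kif2c changed by -2.34 and -2.18. Tpx2 fell with IL-4, to 499, 426 and 434 in WT (-0.60 ± 0.094, adjusted p = 9.76e-05) and 502, 521 and 608 in KO (-0.78 ± 0.094, adjusted p = 5.92e-06). Top2a fell to 944, 679 and 609.5 in WT (-1.89 ± 0.21, adjusted p = 2.50e-06) and 872, 851 and 927 in KO (-1.85 ± 0.21, adjusted p = 2.82e-06). Mki67 fell to 1344, 734 and 717 in WT (-1.51 ± 0.29, adjusted p = 0.000637) and 1001, 1022 and 1502 in KO (-1.43 ± 0.29, adjusted p = 0.000965).

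**Figure D3:**
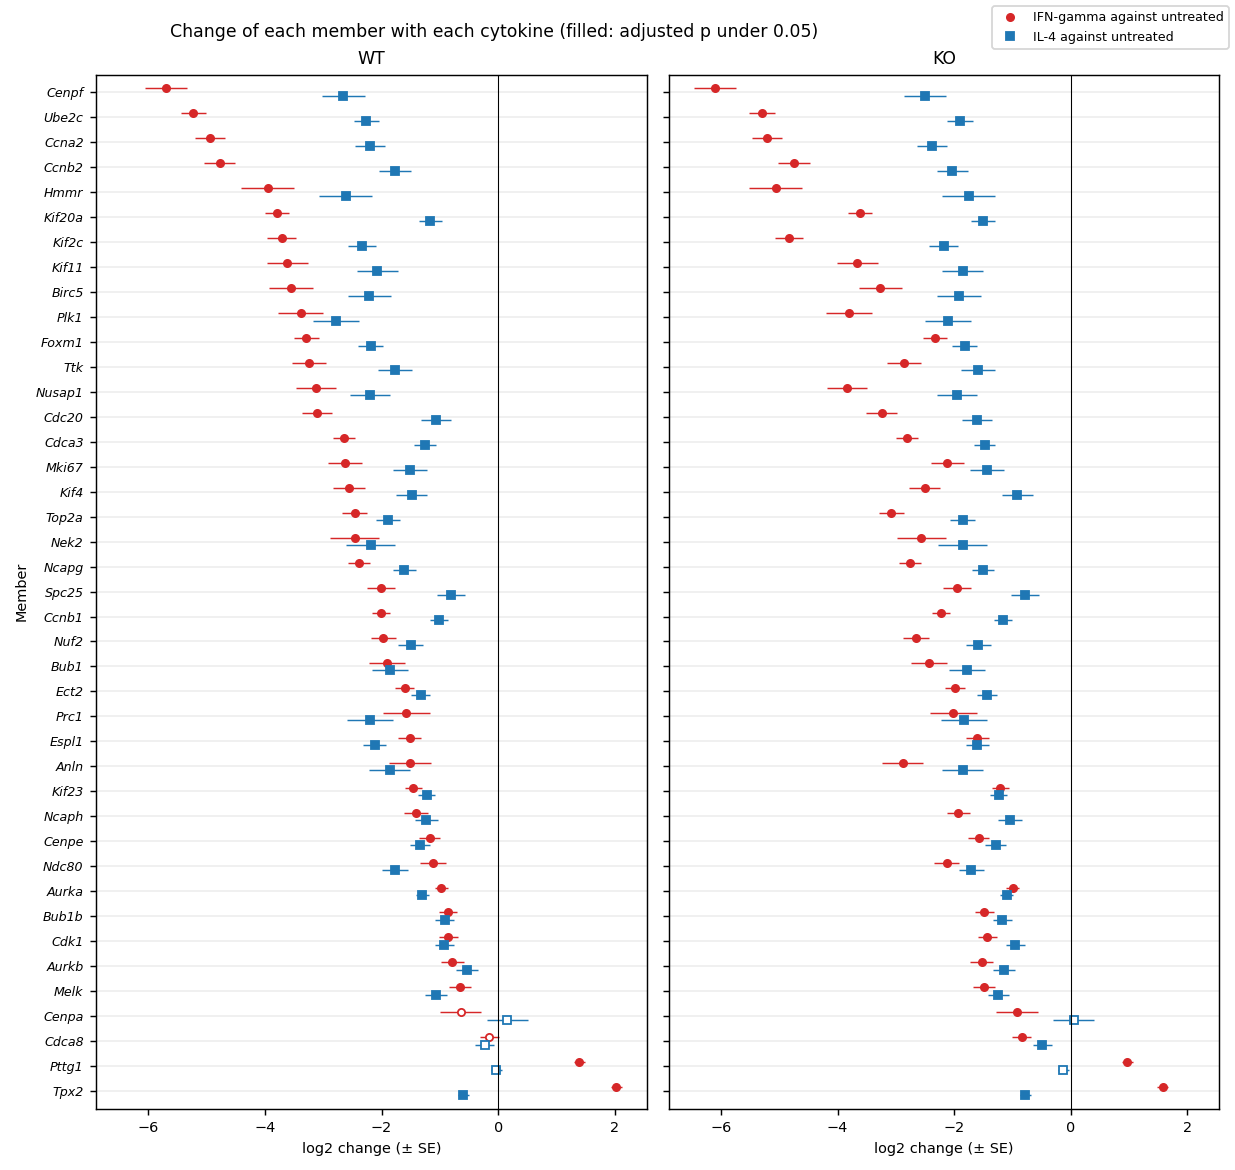
Log2 change with its standard error for each member with IFN-gamma (circles) and IL-4 (squares) against untreated cells, in WT on the left and KO on the right, with filled symbols for an adjusted p under 0.05. IFN-gamma changes run from -5.70 for Cenpf to 2.03 for Tpx2 in WT, and IL-4 changes from -2.79 for Plk1 to 0.16 for Cenpa.

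The direct comparison of the 2 cytokines tests where the responses differ. In WT, 20 members were lower with IFN-gamma than with IL-4, 5 were higher and 16 did not pass the test, against 29.7% lower and 30.8% higher among all genes. In KO, 25 were lower, 2 higher and 14 not called, against 27.4% lower and 27.5% higher. The median difference was -0.60 in WT and -1.03 in KO. Cenpf (-3.05 ± 0.36 in WT, -3.60 ± 0.36 in KO), Ccna2 (-2.74 ± 0.26 and -2.83 ± 0.26), Ube2c (-2.97 ± 0.22 and -3.40 ± 0.22) and Kif20a (-2.63 ± 0.20 and -2.11 ± 0.20) were lower with IFN-gamma in both genotypes. Tpx2 was higher with IFN-gamma by 2.63 ± 0.094, adjusted p = 1.66e-13 in WT and 2.35 ± 0.094, adjusted p = 8.61e-13 in KO, and Pttg1 by 1.42 ± 0.10, adjusted p = 6.28e-10 and 1.10 ± 0.10, adjusted p = 2.43e-08. Aurka, Espl1 and Ndc80 were also higher with IFN-gamma in WT, by 0.33, 0.60 and 0.65. All 3 calls were lost when only the groups compared entered the fit. The Aurka call was also lost with TMM factors, that of Espl1 without WT IFN-gamma replicate 3 or WT IL-4 replicate 2, and that of Ndc80 without WT IFN-gamma replicate 1 or WT IL-4 replicate 3. Cdk1 did not pass this test in WT (0.068 ± 0.16, adjusted p = 0.735) and was lower with IFN-gamma in KO (-0.48 ± 0.16, adjusted p = 0.0183). Plk1 did not pass in WT (-0.60 ± 0.39, adjusted p = 0.195) and did in KO (-1.70 ± 0.39, adjusted p = 0.00134).

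In untreated cells, 39 of the 41 members had a higher mean in KO than in WT on the log2 scale, with a median difference of 0.36, but only 2 passed the test and none was lower, against 1.46% higher and 0.525% lower among all genes. Every KO library lay above every WT library for 25 of the 41 members, against 16.4% of all genes. The called members were Tpx2, at 759.9, 615 and 689.6 in WT and 944, 981 and 862 in KO (0.44 ± 0.094, adjusted p = 0.02), and Ccnb1, at 281, 253 and 271 and 417, 433 and 402 (0.64 ± 0.15, adjusted p = 0.04). Both groups of libraries are separate for each of these genes. Kif20a (0.79 ± 0.20, adjusted p = 0.0582), Ube2c (0.77 ± 0.22, adjusted p = 0.0921) and Kif23 (0.50 ± 0.14, adjusted p = 0.0921) had differences of like size that did not pass. Cdc20 went from 243, 213 and 237 to 387, 405 and 326 (0.68 ± 0.26, adjusted p = 0.244) and Plk1 from 202, 221 and 237 to 345, 386 and 324 (0.67 ± 0.39, adjusted p = 0.568), each with no overlap, while Pttg1 (-0.10 ± 0.10, adjusted p = 0.816) and Spc25 (-0.01 ± 0.24) were the members without a positive difference.

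These counts depended on single libraries and on the spread that was assumed. Leaving out WT untreated replicate 1 or KO untreated replicate 3 left 1 call, and leaving out WT untreated replicate 2 or 3 or KO untreated replicate 1 or 2 left 0. With only the untreated libraries in the fit 12 members were called higher, with edgeR 5 and with DESeq2 8. KO untreated replicate 3 was the lowest of its group for 40 of 41 members. The summed normalized count of 13 of 15 stromal and fibroblast markers was 263, 691 and 379 in the WT untreated libraries and 1787, 2138 and 616 in the KO untreated libraries, so it too was lowest in KO replicate 3. None of the 11 stromal and fibroblast markers that passed the filter was called in KO against WT untreated. The myeloid progenitor sum given above was higher in every KO than in every WT untreated library. Within KO it was highest in replicate 3, at 44.4, 38.1 and 55.5 in replicates 1, 2 and 3. Of the 2 of these markers that passed the filter, Cd34 was called higher in KO untreated (2.58, adjusted p = 0.0216) and with IFN-gamma (2.92, adjusted p = 0.00112). The other tested progenitor marker was called in neither comparison. The part of stromal or progenitor cells in the difference was not tested.

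With IFN-gamma, 6 members were higher and 5 lower in KO than in WT, against 14.3% higher and 13.6% lower among all genes, a share close to that of the members. The groups did not overlap for 6 members above and 5 below, against 21.2% and 21.4% of all genes, and the median difference was 0.05. Foxm1 had the smallest adjusted p, at 60.9, 31.6 and 31.8 in WT and 103, 77.9 and 107 in KO (1.25 ± 0.21, adjusted p = 0.000377). Kif23 was at 395, 284 and 268 and 488, 568 and 511 (0.74 ± 0.14, adjusted p = 0.00106), and Kif20a at 12.8, 14.7 and 23.6 and 33.9, 32.9 and 32.2 (0.96 ± 0.20, adjusted p = 0.0022). Mki67 (0.80 ± 0.29, adjusted p = 0.0479), Ube2c (0.70 ± 0.22, adjusted p = 0.0244) and Aurka (0.33 ± 0.11, adjusted p = 0.0352) were also higher in KO. The Ube2c levels rest on 8, 5 and 4 reads in the WT and 11, 8 and 9 in the KO libraries, so its difference is imprecise. Pttg1 was lower, at 1502, 1620 and 1625 in WT and 1193, 1112 and 1006 in KO (-0.52 ± 0.10, adjusted p = 0.000683), with every KO library below every WT library. Ndc80 (-0.77 ± 0.22, adjusted p = 0.0138), the cytokinesis protein Anln (-1.11 ± 0.35, adjusted p = 0.0267), Aurkb (-0.57 ± 0.20, adjusted p = 0.0359) and Melk (-0.52 ± 0.19, adjusted p = 0.0453) were lower in KO as well. Tpx2 was not called between genotypes with IFN-gamma (-0.013 ± 0.094, adjusted p = 0.935).

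Foxm1, Kif23 and Pttg1 were called in all 16 alternative fits, and Kif20a in all but the fit of the 2 groups alone (adjusted p = 0.0516). Without WT IFN-gamma replicate 1, the highest of its group in 32 members, the calls for Anln, Aurka, Aurkb, Melk and Ndc80 were lost and Birc5, Cenpa, Kif4 and Ttk were gained. The calls for Mki67, Ube2c and Aurka were each lost in 9 of the 16 alternatives, those for Mki67 and Ube2c with both edgeR and DESeq2. Melk was lost in 8, Aurkb in 6, and Anln and Ndc80 in 3 each. Leaving out WT IFN-gamma replicate 3 gave 7 calls, KO IFN-gamma replicate 1 gave 6 and KO IFN-gamma replicate 2 gave 4. The number was 4 when only the groups compared entered the fit. Stromal markers summed to 241, 524 and 311 in the WT and 1058, 1328 and 478 in the KO IFN-gamma libraries, and their part in these differences was not tested.

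With IL-4, 6 members were higher in KO than in WT and none was lower, against 3.46% higher and 3.13% lower among all genes. Every KO library lay above every WT library for 14 members and below for 2, against 10.3% and 9.78% of all genes, and 39 of 41 differences were positive with a median of 0.37. Ube2c was at 56.8, 62.3 and 43.1 in WT and 133, 115 and 109 in KO (1.14 ± 0.22, adjusted p = 0.00492). Aurka was at 110.3, 118 and 117 and 189, 157 and 166 (0.56 ± 0.11, adjusted p = 0.00609), and Espl1 at 98.3, 52.5 and 73.8 and 129, 124 and 147 (0.87 ± 0.20, adjusted p = 0.0142). Kif4, a chromosome-bound kinesin, (0.95 ± 0.27, adjusted p = 0.0438), Plk1 (1.36 ± 0.39, adjusted p = 0.0471) and Kif23 (0.49 ± 0.14, adjusted p = 0.0487) passed with less margin. The 2 members below were Aurkb (-0.44 ± 0.20, adjusted p = 0.193) and Pttg1 (-0.19 ± 0.10, adjusted p = 0.246). None of the 6 calls remained when only the 6 IL-4 libraries entered the fit. Leaving out WT IL-4 replicate 3 or KO IL-4 replicate 1 left 3. Plk1 was lost in 8 of 16 alternatives, Kif4 and Kif23 in 6 each, and Ube2c, Aurka and Espl1 in 1 each. The calls for Plk1 and Kif23 were among those lost without WT IL-4 replicate 2, the shallowest library. It held 4 Plk1 reads, a normalized count of 13.1 beside 62.3 and 35.6 in WT IL-4 replicates 1 and 3, so the Plk1 difference is imprecise. Stromal markers summed to 376 to 1167 in the WT and 737 to 2109 in the KO IL-4 libraries, and their part in the difference was not tested.

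**Figure D4:**
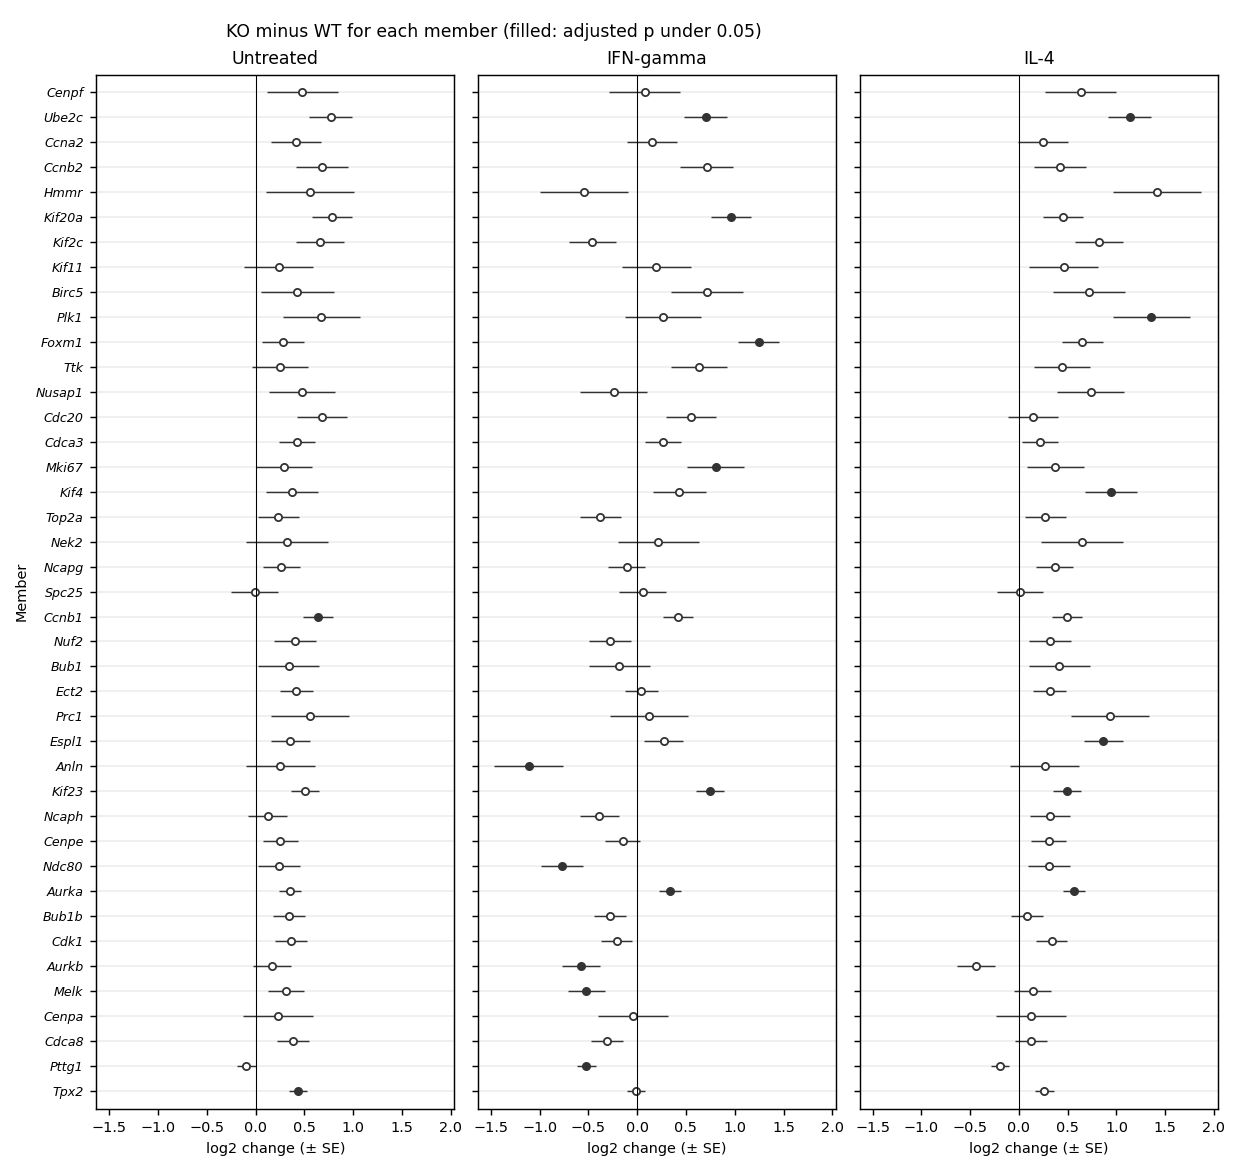
KO minus WT difference on the log2 scale with its standard error for each member, in untreated cells, with IFN-gamma and with IL-4 from left to right, with filled symbols for an adjusted p under 0.05. Most points lie right of 0 in untreated and IL-4 cells, while with IFN-gamma they spread from -1.11 for Anln to 1.25 for Foxm1.

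The difference between genotypes in the response itself was tested as an interaction. For IFN-gamma, 2 of the 41 members were called, both with a negative difference of KO minus WT. Among all genes 4.84% were lower, close to the share of the members, and 4.3% were higher. The median difference of the members was -0.38. Tpx2 rose by 2.03 ± 0.094 in WT and 1.58 ± 0.094 in KO, a difference of -0.45 ± 0.13, adjusted p = 0.0429. Its untreated level was higher in KO, as described above. Ndc80 changed by -1.12 ± 0.22 in WT and -2.13 ± 0.22 in KO, a difference of -1.01 ± 0.31, adjusted p = 0.0483. Kif2c (-1.12 ± 0.35, adjusted p = 0.0526), Foxm1 (0.97 ± 0.30, adjusted p = 0.0543), Melk (-0.83 ± 0.26, adjusted p = 0.0567) and Pttg1 (-0.43 ± 0.14, adjusted p = 0.0584) lay just outside the threshold. The IFN-gamma levels of Kif2c rest on 12 to 15 reads a library in WT and 4 to 15 in KO, so its difference is imprecise. With the sample code as a replicate block, 8 members were called, Tpx2 and Ndc80 with Anln, Cdca8, Foxm1, Kif2c, Melk and Pttg1. No member was called with a fit that had no filter on low values, and 0 to 4 were called when single libraries were left out. Leaving out WT untreated replicate 2 or 3, or KO untreated replicate 1 or 2, left 0. Without WT untreated replicate 1 only Tpx2 was called. Without KO IFN-gamma replicate 1, 2 or 3 neither Tpx2 nor Ndc80 was called, and the single call was Kif2c, Foxm1 and Melk in turn. Without WT IFN-gamma replicate 2, Tpx2 was lost and Ndc80 was called with Aurkb, Bub1b and Cdca8.

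For IL-4, no member was called by limma, edgeR or DESeq2, against 0% lower and 0.007% higher (1 gene) among all genes, and 1 member, Aurkb, had an unadjusted p under 0.05 (-0.61 ± 0.28, adjusted p = 0.883). The fall of Ccna2 with IL-4 differed between genotypes by -0.17 ± 0.36, that of Foxm1 by 0.37 ± 0.30 and that of Top2a by 0.039 ± 0.30. A p above the threshold does not show that the genotypes respond alike.

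Other genes of the cell cycle were examined as whole lists. Of 60 further mitosis genes, 51 fell and 2 rose with IFN-gamma in WT and 53 fell and 1 rose in KO, beside all-gene shares of 31.1% and 31.4% in WT and 27.5% and 28.3% in KO. With IL-4, 44 fell and 2 rose in WT and 46 fell and 3 rose in KO, beside 14% and 16.3% in WT and 14.5% and 15.8% in KO. The WT medians were -1.37 and -1.16. Pbk, a mitotic kinase of that list, changed with IFN-gamma by -6.33 ± 0.34 in WT (adjusted p = 3.16e-11) and -6.78 ± 0.34 in KO (adjusted p = 1.52e-11). Of 40 DNA replication genes, 29 fell and 2 rose with IFN-gamma in WT, with a median of -0.81, and 30 fell and 6 rose in KO, beside the same all-gene shares. With IL-4, 29 fell and 2 rose in WT and 26 fell and 2 rose in KO, beside the IL-4 shares of all genes just given. Rrm2, the inducible subunit of ribonucleotide reductase, changed by -4.88 ± 0.21 with IFN-gamma (adjusted p = 1.69e-12) and -2.05 ± 0.21 with IL-4 (adjusted p = 1.01e-06) in WT.

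Between genotypes, few genes of these lists were called outside the IFN-gamma libraries. In untreated cells none of the 60 mitosis genes or 40 replication genes was called, beside 1.46% higher and 0.525% lower among all genes. Of the 21 genes of G1 control 1 was higher there and none was lower. In KO against WT with IFN-gamma, 7 of the 60 mitosis genes were higher and 6 lower, shares under the 14.3% and 13.6% of all genes. Of the 40 replication genes 10 were higher and 2 lower, of 21 genes of G1 control 1 was higher and 7 were lower, and of 15 genes of the complexes that repress or activate mitotic promoters 3 were higher and 1 lower. With IL-4, 1 mitosis gene was higher, and 1 replication gene and 1 gene of G1 control changed in each direction. Among all genes 3.46% were higher and 3.13% lower in KO with IL-4.

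Genes that control G1 moved in both directions. Of 21, 10 rose and 7 fell with IFN-gamma in WT, beside 31.4% and 31.1% of all genes, and 7 rose and 8 fell in KO, beside 28.3% and 27.5%. Their median was 0.53 in WT and 0.05 in KO. With IL-4, 1 rose and 5 fell in WT, beside 16.3% and 14% of all genes. In KO 2 rose and 7 fell, beside 15.8% and 14.5%. The cyclin genes Ccnd2, Ccnd1 and Ccne1 rose with IFN-gamma in WT by 4.64 ± 0.27 (adjusted p = 8.21e-11), 2.17 ± 0.16 (2.45e-09) and 2.68 ± 0.17 (3.30e-10), and Ccnd2 went from a mean of 205.4 to 5308. Mxd1, a Myc antagonist, rose by 3.30 ± 0.16 (adjusted p = 4.83e-12). Of the 15 genes of the repressing and activating complexes, 4 rose and 4 fell with IFN-gamma in WT and 4 rose and 5 fell in KO, and the WT shares lie under those of all genes. Rbl1, which encodes p107, rose from a mean of 1255 to 5966 (2.24 ± 0.11, adjusted p = 7.60e-12), and Tfdp2 changed by -2.30 ± 0.14 (adjusted p = 1.35e-10). With IL-4, 4 of the 15 fell and none rose in each genotype, beside the IL-4 shares of all genes given above. Mybl2, which encodes B-Myb, fell with IL-4 from 91.95 to 17.65 (-2.42 ± 0.33, adjusted p = 2.51e-05).

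Responses of members with and without TTTGAA in the promoter window overlapped. The 26 members with the letters had a median IFN-gamma change of -2.42 in WT and ranged from -5.70 to -0.15, and the 10 with a window but without the letters had -1.94 and ranged from -3.55 to 1.39. With IL-4 the medians were -1.69 and -1.42.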

How the data were processed

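RNA of 18 libraries was sequenced on a NextSeq500 from poly(A)-selected, stranded libraries, per the labels' protocols. STAR 2.5, HTSeq 0.6, DESeq2, edgeR and GRCm38 are named in the submitters' processing notes, without settings. How strand was treated in counting was not given in the sources used here. Deposited signal values are gene counts that the authors divided by a size factor per library, and 100.0% of values came out as whole reads when each library's step was recovered. Of 21428 rows, 21380 identifiers were distinct, and 34 identifiers occurred more than once with identical values.

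Groups came from the sample labels. Values were taken as log2(normalized count + 1), and 14288 genes with at least 10 in at least 3 libraries were fitted with limma 3.58.1 (R 4.3.3, trend) as 6 group means with 12 residual degrees of freedom. Adjusted p-values are Benjamini-Hochberg over all 14288 genes, two-sided, called below 0.05. The pseudocount understates changes of low genes. The alternatives were other pseudocounts and filters, TMM and quantile scaling, edgeR 4.0.16 and DESeq2 1.42.0 on recovered reads, the compared groups alone, a replicate block, and each library left out. The scripts were tested on simulated data.

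Members and gene lists were chosen with earlier results of these data known. The text names 14 lead members and up to 4 further called members of each comparison with the smallest adjusted p, and others are named where a group is described. Libraries of the same sample code in different treatments of a genotype were taken as the same animal, and their deviations from the group means correlated at 0.00363 to 0.243 over 18 pairs (median 0.174). Libraries that share only a number across genotypes correlated at -0.212 to 0.104 over 9 pairs.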

Additional observations from a re-analysis of the deposited data

Results flagged for a closer look

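The IFN-gamma response differed between genotypes for Tpx2 and Ndc80, by the limma test of the interaction itself. These are 2 of 41 members, a share close to the 4.84% lower among all genes, of which 4.3% were higher. The rise of Tpx2 was smaller in KO than in WT by a log2 difference of -0.449 (adjusted p = 0.0429), and the fall of Ndc80 was larger by -1.01 (adjusted p = 0.0483). Neither call was stable: Tpx2 was lost in 12 of 22 alternatives, among them no filter on low values, TMM factors, quantile normalization and most fits that left out a library. Ndc80 was lost in 13 of 22, among them no filter, TMM factors, the groups compared alone and most fits that left out a library.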

How the results depend on the processing

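The number of members called kept within 1.5 times its value in every alternative run for both cytokine responses in both genotypes, for IFN-gamma against IL-4, and stayed at 0 for the genotype difference in the IL-4 response. The counts for KO against WT did not. In untreated cells 2 members were called, against 4 with a pseudocount of 5, 1 with no filter, 5 with edgeR, 8 with DESeq2 and 12 with only the groups compared, and 0 to 1 when a library was left out. With IFN-gamma 11 were called, against 4 with only the groups compared and 4 to 10 when a library was left out. With IL-4 6 were called, against 0 with only the groups compared and 3 to 9 when a library was left out. For the genotype difference in the IFN-gamma response 2 were called, against 0 with no filter, 6 with a mean of at least 50, 1 with TMM factors, 4 with edgeR, 8 with DESeq2, 5 with only the groups compared and 0 to 4 when a library was left out. The replicate block, by animal, gave 8 there. By shared number, which does not pair animals across genotypes, the block gave 3, 12 and 8 calls for KO against WT untreated, with IFN-gamma and with IL-4, and it changed no other count by more than 1.5 times. The value for Cenpa: KO against WT with IFN-gamma, -0.04 with all libraries, reversed to 0.615 without WT IFN-gamma replicate 1, and ranged from -0.414 to 0.615 over the libraries left out. The cause of these shifts was not tested. Over all named members and alternatives, 2976 of 3182 values kept their direction and call. Depth limits members with few reads in treated cells, such as Cenpf, Ube2c, Nek2, Kif2c, Hmmr and Ccnb2.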
